A study of Homo sapiens with 9 samples.

Results

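MHC class I antigen presentation was followed through 9 genes in 501mel cells, an established human melanoma line, after knockdown of TBX3, a T-box transcription factor. The genes are the heavy chains HLA-B, HLA-C, HLA-E and HLA-F, the light chain B2M, the peptide transporter subunits TAP1 and TAP2, the loading factor TAPBP and the trimming peptidase ERAP1. They were taken by symbol from the 25382 entries of the count table, all 9 were found, and all 9 had enough reads to be tested. Cells received DsiRNA 13.6 or DsiRNA 13.8, both directed against TBX3, or the control DsiRNA NC1. A DsiRNA is a short synthetic RNA that Dicer trims into a silencing guide. All 9 samples were of the same line, were lipofected with a DsiRNA and were harvested 24 h later, and each group held 3 biological replicates. The labels do not say whether replicates were separate cultures, so the p-values measure the spread between these samples, which may be technical in part.

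Class I molecules show short peptides from inside the cell to CD8 T cells. The proteasome cuts proteins into peptides, the TAP1-TAP2 transporter carries them into the endoplasmic reticulum, ERAP1 trims them, and TAPBP (tapasin) with calreticulin, calnexin and PDIA3 helps to place them in the groove of a heavy chain bound to B2M. HLA-B and HLA-C present to T cells and to killer cell receptors, HLA-E presents mainly signal peptides of other class I chains to NK cell receptors, and HLA-F is a less common, non-classical chain. Interferons raise transcription of most of these genes, and loss of class I presentation is a known route by which melanoma escapes T cells. Class I promoters carry an interferon response element beside an NF-kB site and a module with a CRE-like box and a CCAAT box, to which NLRC5 is recruited.

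The promoter stretches that hold matches to an interferon response element are shown first. RefSeq windows (GRCh38.p14) that run from 250 bases before to 50 bases after the annotated start were matched for 8 of the 9 genes, HLA-E not being in the table used. Capitals mark matches, on either strand, to GAAANNGAAA (an interferon response element with full units) or to GAANNGAAA (the same with 1 unit shortened), where N is any base. The 3 heavy chain stretches, each of 150 bases, run from position -200 to position -51, where 0 is the start base.
HLA-B (chr6:31357230-31357379, minus strand): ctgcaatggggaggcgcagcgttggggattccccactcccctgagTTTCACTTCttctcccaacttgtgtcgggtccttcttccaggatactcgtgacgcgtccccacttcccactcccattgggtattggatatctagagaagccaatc
HLA-C (chr6:31272143-31272292, minus strand): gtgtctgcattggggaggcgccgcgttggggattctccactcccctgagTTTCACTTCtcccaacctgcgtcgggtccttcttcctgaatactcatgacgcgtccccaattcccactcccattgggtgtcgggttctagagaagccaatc
HLA-F (chr6:29723234-29723383, plus strand): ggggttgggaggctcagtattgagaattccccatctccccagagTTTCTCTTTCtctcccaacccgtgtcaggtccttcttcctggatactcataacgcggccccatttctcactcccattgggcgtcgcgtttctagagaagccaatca
The capitals stand at nearly the same place in all 3, between positions -156 and -143. In global alignments the HLA-B stretch matched that of HLA-C at 87.0% of aligned columns and that of HLA-F at 78.9%, and HLA-C matched HLA-F at 78.2%. HLA-F has the full-unit form, and HLA-B and HLA-C have the shortened one. The other 5 stretches, each of 120 bases, were placed to hold the capitals with sequence on both sides.
B2M (chr15:44711323-44711442, plus strand): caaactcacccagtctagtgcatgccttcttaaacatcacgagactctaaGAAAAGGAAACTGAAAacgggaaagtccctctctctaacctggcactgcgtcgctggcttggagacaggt
TAP1 (chr6:32853769-32853888, minus strand): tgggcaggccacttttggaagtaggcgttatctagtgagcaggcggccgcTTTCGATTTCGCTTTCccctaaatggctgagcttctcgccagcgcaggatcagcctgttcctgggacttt
TAP2 (chr6:32838733-32838852, minus strand): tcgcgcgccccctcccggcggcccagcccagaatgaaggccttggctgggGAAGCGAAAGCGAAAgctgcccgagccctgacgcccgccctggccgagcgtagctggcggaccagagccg
TAPBP (chr6:33314029-33314148, minus strand): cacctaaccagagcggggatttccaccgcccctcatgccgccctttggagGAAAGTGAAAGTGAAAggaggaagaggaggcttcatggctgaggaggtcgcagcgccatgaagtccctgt
ERAP1 (chr5:96807896-96808015, minus strand): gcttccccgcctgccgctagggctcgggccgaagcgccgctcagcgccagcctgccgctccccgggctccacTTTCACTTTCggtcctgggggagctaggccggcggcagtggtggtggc

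GAAANNGAAA was found in the windows of 6 of the 8 genes (HLA-F, B2M, TAP1, TAP2, TAPBP and ERAP1), against 3.57% of all 35116 windows in the table. GAANNGAAA was found in 4 of the 8 (HLA-B, HLA-C, TAP2 and a second ERAP1 window), against 7.66% of all windows. This second motif was chosen after the letters were seen, and the 2 forms overlap in TAP2. At least 1 of the forms was present in 8 of 8 genes and in 10.56% of all windows. The count of 8 rests on that later choice, since HLA-B and HLA-C match only the second motif. The 8 genes had 10 windows, so counts of genes and shares of windows are not in the same unit. The NF-kB motif GGGNNNTTCC was found in B2M, TAP1 and TAPBP (6.52% of all windows), the CRE half-site TGACG in HLA-B, HLA-C, B2M and TAP2 (24.55%), and CCAAT in 6 genes (34.61%). Only this strict form of the NF-kB site was searched. The HLA-B stretch holds ggggattccc, which it misses, so a gene without a match may still hold an NF-kB site. The interferon-gamma activated motif TTCNNNGAA was found in a second TAP1 window only (7.66%), and the T-box half-site GGTGTGA in 0 of the 8 genes (3.45%). All motifs were searched on both strands, and a match describes letters in a window, not binding. B2M, TAP1 and TAPBP each hold 2 overlapping GAAANNGAAA matches, in TAPBP from position -20 to position -5. Whether matches go with the change of any gene was not tested.

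**Figure D1:**
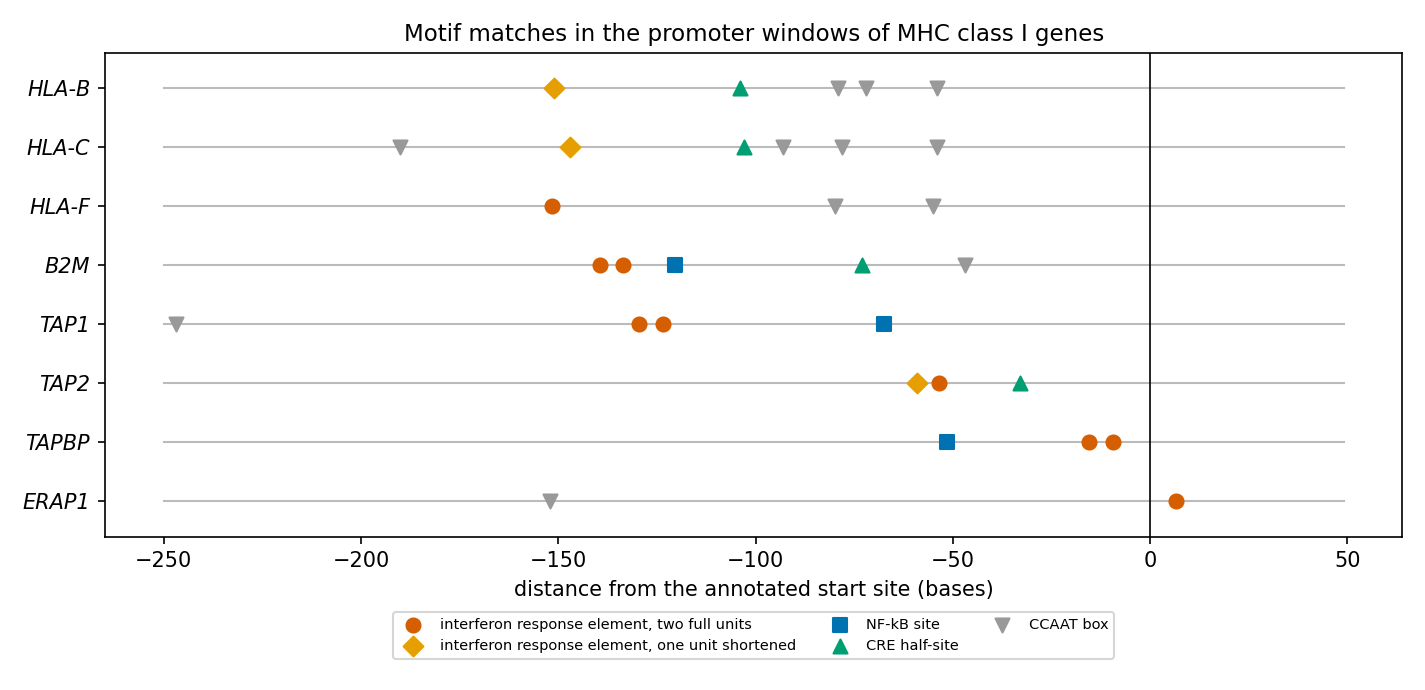
Positions of motif matches along the promoter windows of 8 genes, with distance from the annotated start in bases on the x axis and 1 row per gene. Symbols mark the centre of each match on either strand; the matches to the interferon response element lie between positions -156 and -143 in HLA-B, HLA-C and HLA-F.

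The libraries held 38105026 to 52272147 counted reads. The unit of expression was CPM, in which each library is scaled by its total reads and its TMM factor, and changes are log2 fold changes ± SE from edgeR's quasi-likelihood test. "Rose" and "fell" are used where the p adjusted by Benjamini-Hochberg over 14731 genes was under 0.05. TBX3 fell by 50.6% with 13.6 (adjusted p = 1.27e-07) and fell by 58.6% with 13.8 (adjusted p = 1.03e-08), to 42.27 ± 3.67 and 35.37 ± 1.41 CPM, against 85.48 ± 2.73 CPM in control cells (SD, n = 3 each). Summed melanocyte markers were high in all groups, at 14580 to 15810 CPM with 13.6, 17920 to 18740 CPM with 13.8 and 13860 to 15970 CPM in control, and none of these 10 genes was at 0. Most of each sum was PMEL and TYRP1, so the sums do not describe each gene. With each DsiRNA, 4 of the 10 genes rose and 3 fell. Over all genes tested, 24.9% rose and 25.0% fell with 13.6, and 27.5% and 27.9% with 13.8. Of markers of other cell types, those of leukocytes summed to 100.9 to 106.8 CPM with 13.6, 78.23 to 83.85 CPM with 13.8 and 74.31 to 80.03 CPM in control, nearly all of it CD68. CD68 is a lysosomal protein, and it rose with 13.6 (0.44 ± 0.06, adjusted p = 4.62e-05). Fibroblast markers summed to 6.95 to 8.667 CPM with 13.6, 23.18 to 25.78 CPM with 13.8 and 5.624 to 7.02 CPM in control. Of the 7 tested, 7 rose with 13.8 and 1 rose with 13.6, against 27.5% and 24.9% of all genes tested. Endothelial markers summed to at most 1.667 CPM in any library. Keratinocyte markers summed to between 39.4 and 46.34 CPM in every library, nearly all of it KRT10, and KRT5 was at 0. The part of these markers in the class I results was not tested, and in bulk RNA a change in the number of expressing cells and a change in RNA per cell cannot be told apart.

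With DsiRNA 13.6, 7 of the 9 class I genes rose and 0 fell, against 24.9% of all genes tested that rose and 25.0% that fell. With DsiRNA 13.8, 8 of 9 rose and 0 fell, against 27.5% and 27.9% of all genes. The median log2 fold change of the 9 genes was 0.53 with 13.6 and 0.62 with 13.8, beside -0.01 and 0.01 over all genes tested. All 3 knockdown libraries lay above all 3 control libraries in 7 of 9 genes with 13.6 (27.9% of all genes) and in 8 of 9 with 13.8 (29.5%). Both comparisons use the same 3 control libraries. TAPBP did not pass the test with either DsiRNA, and HLA-F passed it with 13.8 and not with 13.6.

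**Figure D2:**
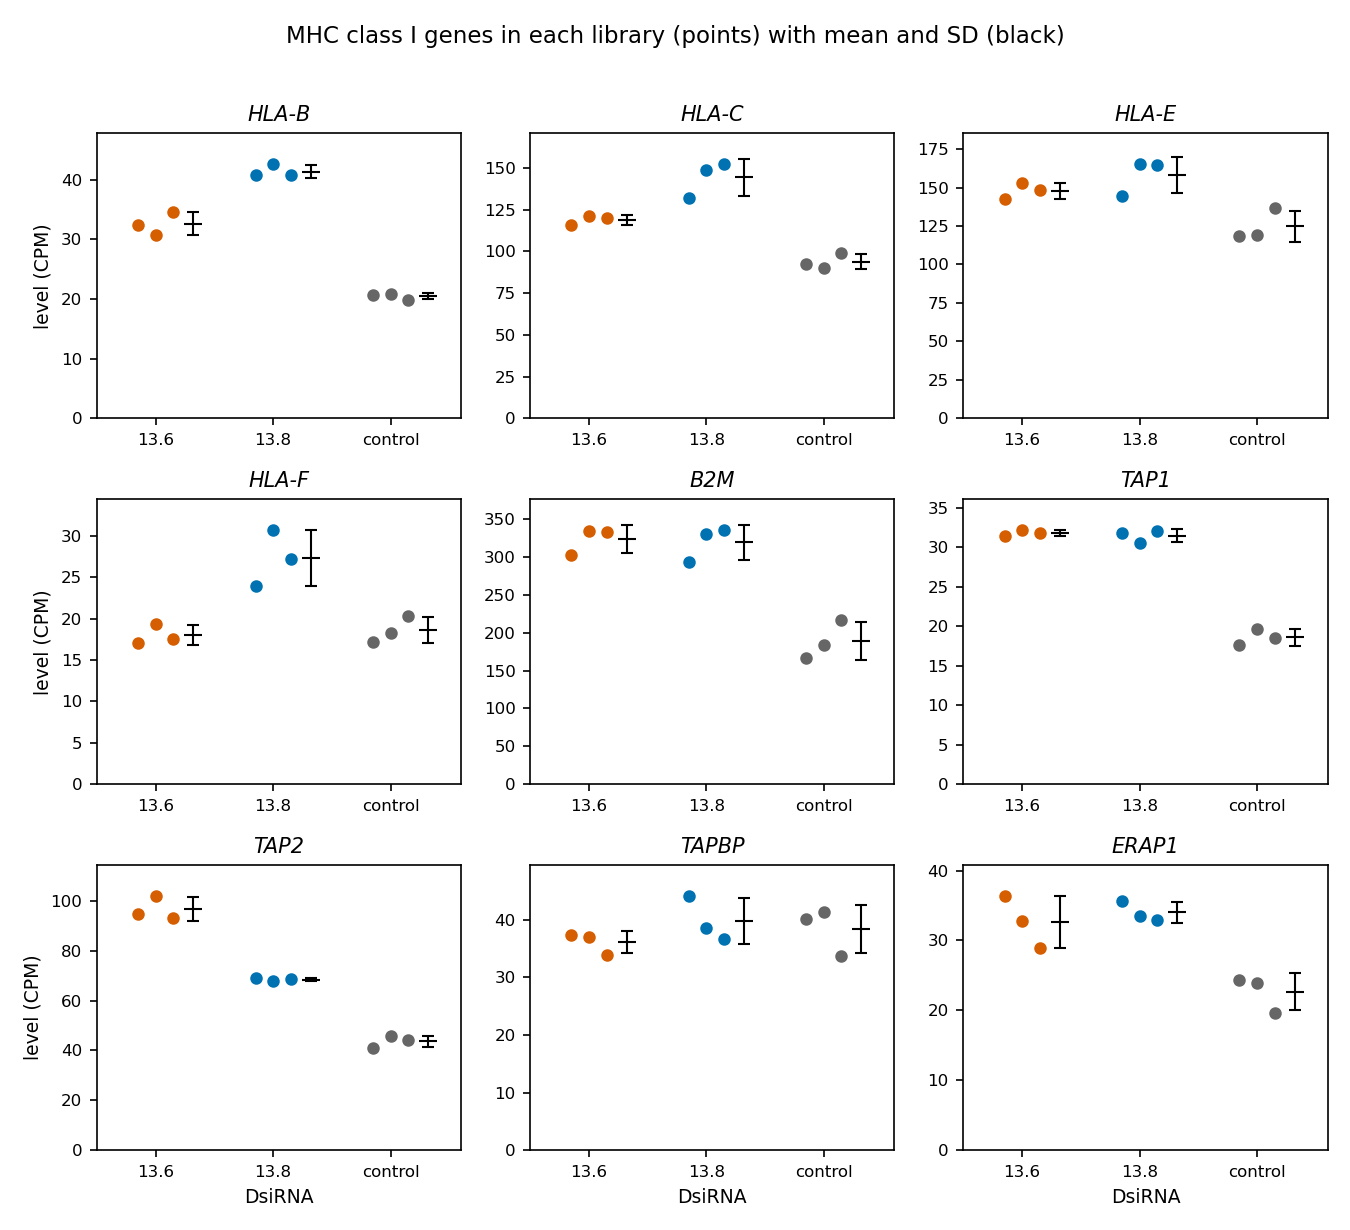
Levels of the 9 genes in CPM (y axes, each from 0) in the 3 libraries of each group, with DsiRNA 13.6 in orange, DsiRNA 13.8 in blue and control in grey; black bars give the mean and SD. The knockdown points lie above all control points in every panel except TAPBP and, with 13.6, HLA-F.

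HLA-B, a classical heavy chain, gave 32.41, 30.76 and 34.58 CPM with 13.6, 40.75, 42.64 and 40.70 CPM with 13.8, and 20.74, 20.80 and 19.83 CPM in control. The 3 groups did not overlap, and the order was 13.8, 13.6, control. HLA-B rose 1.59-fold with 13.6 (0.67 ± 0.07, adjusted p = 3.47e-06) and 2.02-fold with 13.8 (1.02 ± 0.07, adjusted p = 4.84e-08). With 13.8 it had the largest change of the 9 genes, and 7.93% of all genes tested had a larger one.

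HLA-C, the other classical heavy chain in the set, gave 115.6, 121.1 and 120.2 CPM with 13.6, 131.8, 149.1 and 152.5 CPM with 13.8, and 92.23, 90.35 and 99.27 CPM in control. The groups again did not overlap and had the same order. HLA-C rose 1.27-fold with 13.6 (0.34 ± 0.07, adjusted p = 8.93e-04) and 1.54-fold with 13.8 (0.62 ± 0.07, adjusted p = 4.21e-06). HLA-B and HLA-C are near-identical in sequence and overlap in the GENCODE v29 annotation, so counting may have split or dropped reads between them and the change of each alone is uncertain. The ratio of HLA-C to HLA-B reads was 3.66 ± 0.243 with 13.6, 3.49 ± 0.257 with 13.8 and 4.599 ± 0.356 in control (SD, n = 3 each).

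HLA-E, the ligand of NK cell receptors of the NKG2 family, gave 142.6, 153.0 and 148.6 CPM with 13.6, 144.8, 165.4 and 164.4 CPM with 13.8, and 118.4, 119.1 and 136.6 CPM in control. Each knockdown library was above each control library, and the 2 knockdown groups overlapped. HLA-E rose 1.19-fold with 13.6 (0.25 ± 0.07, adjusted p = 0.0124) and 1.27-fold with 13.8 (0.34 ± 0.07, adjusted p = 0.00133). The call with 13.6 was lost without control replicate 2 (0.21, adjusted p = 0.0538) or without 13.6 replicate 2 (0.23, adjusted p = 0.0529).

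HLA-F, a non-classical chain, gave 17.09, 19.40 and 17.53 CPM with 13.6, 23.99, 30.72 and 27.14 CPM with 13.8, and 17.19, 18.30 and 20.37 CPM in control. The 13.6 libraries lay among the controls, while all 13.8 libraries lay above both. HLA-F rose 1.47-fold with 13.8 (0.55 ± 0.10, adjusted p = 3.9e-04), and the estimate with 13.6 was -0.05 ± 0.10 (adjusted p = 0.727, 95% confidence interval -0.27 to 0.17). HLA-F-AS1 is annotated on the opposite strand over HLA-F, and the strand setting of the counting is not given in the sources used here, so reads of the pair may not have been told apart. It fell with 13.6 (-0.64 ± 0.13, adjusted p = 0.00141) and with 13.8 (-0.57 ± 0.13, adjusted p = 0.00252), to 5.595 ± 0.272 and 5.883 ± 1.11 CPM against 8.702 ± 0.620 CPM in control.

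The summed level of the 4 heavy chains, which reads exchanged between them do not alter, was 317.6 ± 8.73 CPM with 13.6, 371.3 ± 26.0 CPM with 13.8 and 257.7 ± 15.9 CPM in control (SD, n = 3 each). By library the sums were 307.7, 324.2 and 320.9 CPM with 13.6, 341.3, 387.8 and 384.7 CPM with 13.8, and 248.5, 248.5 and 276.0 CPM in control, with no overlap between the groups. The ratio of means to control was 1.23 with 13.6 and 1.44 with 13.8. Other class I genes in the table were not analysed here, so the sum is not the whole heavy chain pool.

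B2M, the light chain that class I heavy chains generally pair with, gave 302.5, 334.5 and 333.1 CPM with 13.6, 292.6, 329.7 and 335.7 CPM with 13.8, and 166.8, 184.1 and 216.6 CPM in control. The 2 knockdown groups covered the same range, well above the controls. B2M rose 1.71-fold with 13.6 (0.77 ± 0.09, adjusted p = 1.22e-05) and 1.69-fold with 13.8 (0.755 ± 0.09, adjusted p = 1.11e-05). B2M reads relative to the summed heavy chain reads came to 1.018 ± 0.030 with 13.6, 0.860 ± 0.012 with 13.8 and 0.732 ± 0.057 in control (SD, n = 3 each), and the 3 groups did not overlap in this ratio, which was not tested.

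TAP1, one of the paired subunits of the peptide transporter, gave 31.42, 32.19 and 31.76 CPM with 13.6, 31.75, 30.57 and 32.10 CPM with 13.8, and 17.58, 19.68 and 18.51 CPM in control. It rose 1.71-fold with 13.6 (0.775 ± 0.07, adjusted p = 9.19e-07) and 1.69-fold with 13.8 (0.76 ± 0.07, adjusted p = 7.08e-07), with the 6 knockdown libraries within a narrow range. TAP1 starts head to head with PSMB9, an immunoproteasome subunit, and the 2 annotated starts lie 488 bases apart on chromosome 6 (GRCh38.p14). Some annotated transcripts of the pair overlap on opposite strands, where their reads may not have been told apart. PSMB9 rose too. It had 137, 157 and 127 reads with 13.6, 98, 135 and 133 reads with 13.8, and 27, 35 and 29 reads in control. Its log2 fold change was 2.115 ± 0.22 with 13.6 (adjusted p = 2.88e-06) and 1.74 ± 0.22 with 13.8 (adjusted p = 1.32e-05).

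TAP2, the partner subunit, gave 94.81, 102.1 and 93.34 CPM with 13.6, 69.03, 67.71 and 68.65 CPM with 13.8, and 41.00, 45.60 and 44.23 CPM in control. The groups were fully separate, here with 13.6 highest. TAP2 rose 2.22-fold with 13.6 (1.15 ± 0.06, adjusted p = 1.68e-08) and 1.57-fold with 13.8 (0.65 ± 0.06, adjusted p = 1.5e-06). With 13.6 its change was the largest of the 9 genes, and 3.56% of all genes tested had a larger one. The ratio of TAP2 to TAP1 reads was 3.04 ± 0.119 with 13.6, 2.18 ± 0.038 with 13.8 and 2.35 ± 0.038 in control (SD, n = 3 each).

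TAPBP, which bridges the transporter to the empty heavy chain, gave 37.36, 37.04 and 33.89 CPM with 13.6, 44.20, 38.52 and 36.61 CPM with 13.8, and 40.19, 41.39 and 33.74 CPM in control. The 3 groups overlapped. The estimate was -0.09 ± 0.09 with 13.6 (adjusted p = 0.436, 95% confidence interval -0.29 to 0.11) and 0.05 ± 0.09 with 13.8 (adjusted p = 0.675, 95% confidence interval -0.15 to 0.25). Both intervals end below the lower bounds of TAP1 and TAP2 in the same comparison, which were 0.63 and 1.015 with 13.6 and 0.61 and 0.52 with 13.8.

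ERAP1, the peptidase that trims peptides in the endoplasmic reticulum, gave 36.39, 32.73 and 28.97 CPM with 13.6, 35.70, 33.53 and 32.87 CPM with 13.8, and 24.39, 23.95 and 19.68 CPM in control. All 6 knockdown libraries were above all controls, with the 13.6 libraries spread most widely. ERAP1 rose 1.44-fold with 13.6 (0.53 ± 0.10, adjusted p = 6.19e-04) and 1.5-fold with 13.8 (0.585 ± 0.10, adjusted p = 2.13e-04). CAST, which encodes calpastatin and overlaps ERAP1 on the opposite strand with the same limit, fell with 13.6 (-0.30 ± 0.07, adjusted p = 0.00268) and gave -0.05 ± 0.07 with 13.8 (adjusted p = 0.554).

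The 2 reagents were also compared directly. With 13.6 relative to 13.8, TAP2 was higher and HLA-B, HLA-C and HLA-F were lower, 1 and 3 of the 9, against 30.9% of all genes tested that were higher and 30.2% that were lower. The class I genes were thus called in this comparison no more often than all genes. The difference for TAP2 was 0.50 ± 0.06 (adjusted p = 1.29e-05). It was -0.34 ± 0.07 for HLA-B (adjusted p = 5.55e-04), -0.28 ± 0.07 for HLA-C (adjusted p = 0.00258) and -0.60 ± 0.10 for HLA-F (adjusted p = 1.65e-04). HLA-E gave -0.10 (95% confidence interval -0.25 to 0.06, adjusted p = 0.271). For B2M the difference was 0.02 (-0.175 to 0.21, adjusted p = 0.869) and for TAP1 0.015 (-0.13 to 0.16, adjusted p = 0.86). TAPBP gave -0.14 (-0.34 to 0.06, adjusted p = 0.202) and ERAP1 -0.06 (-0.27 to 0.15, adjusted p = 0.619). TBX3 itself was higher with 13.6 than with 13.8 by 0.26 ± 0.07 (adjusted p = 0.00699).

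**Figure D3:**
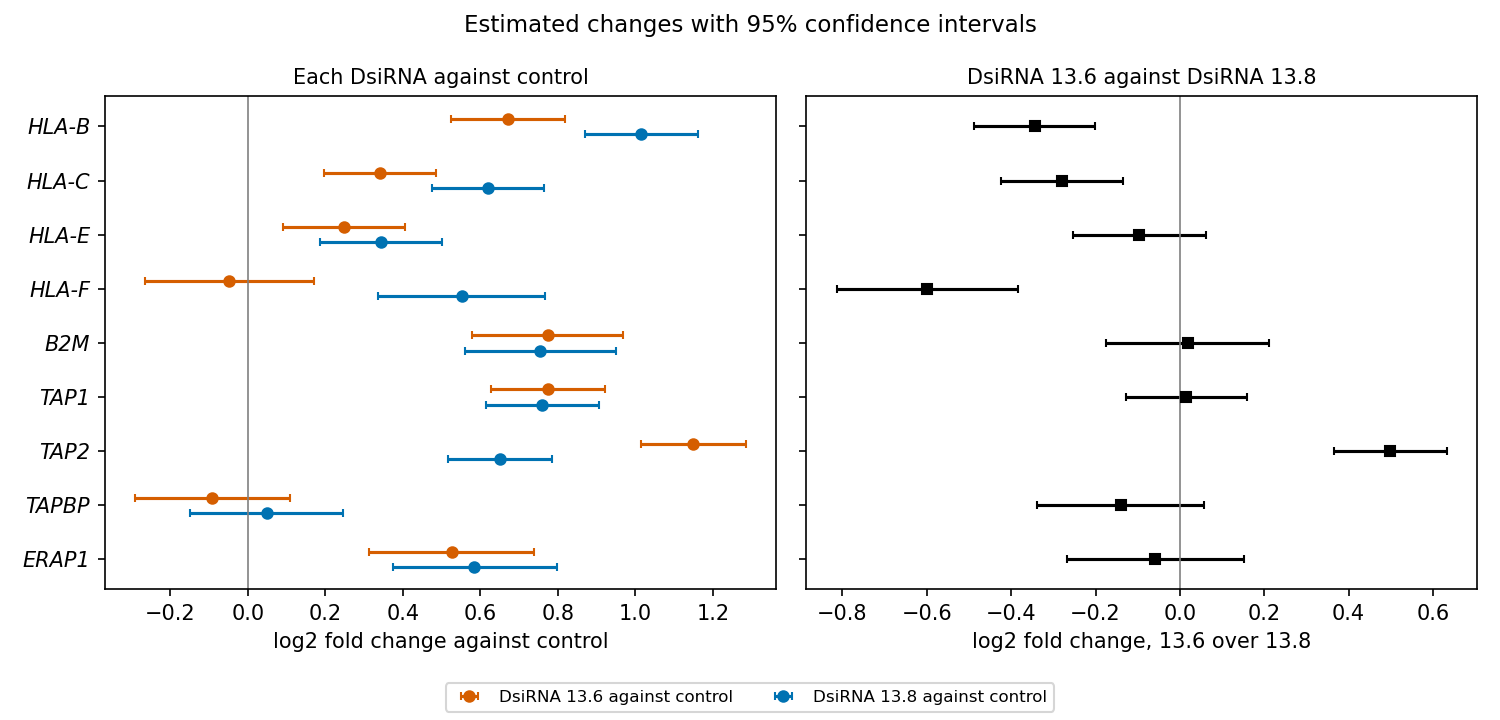
Log2 fold changes (x axes) of the 9 genes with 95% confidence intervals, on the left for DsiRNA 13.6 (orange) and 13.8 (blue) against control, on the right for 13.6 against 13.8. The intervals on the right lie wholly above 0 for TAP2 and wholly below 0 for HLA-B, HLA-C and HLA-F, and include 0 for the other 5 genes.

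Levels were compared between genes as CPM per kilobase of the principal GENCODE v29 transcript, which may not be the transcript model used for counting. With 13.6 the order was B2M (190 ± 10.6), HLA-C (77.5 ± 1.90), HLA-E (56.9 ± 2.01), TAP2 (38.8 ± 1.88), HLA-B (21.1 ± 1.24), TAPBP (19.1 ± 1.01), HLA-F (11 ± 0.751), TAP1 (10.7 ± 0.13) and ERAP1 (5.95 ± 0.675). In the 13.8 libraries it was B2M (187 ± 13.7), HLA-C (94.0 ± 7.24), HLA-E (60.8 ± 4.46), TAP2 (27.4 ± 0.272), HLA-B (26.7 ± 0.715), TAPBP (21.1 ± 2.09), HLA-F (16.7 ± 2.06), TAP1 (10.6 ± 0.27) and ERAP1 (6.19 ± 0.269). Control cells gave B2M (111 ± 14.8), HLA-C (61.2 ± 3.06), HLA-E (47.9 ± 3.96), TAPBP (20.4 ± 2.18), TAP2 (17.5 ± 0.948), HLA-B (13.2 ± 0.35), HLA-F (11.4 ± 0.987), TAP1 (6.28 ± 0.357) and ERAP1 (4.13 ± 0.473), all in CPM per kilobase as mean ± SD over n = 3 libraries. Neighbours whose libraries overlapped were HLA-F and TAP1 with 13.6, TAP2 and HLA-B with 13.8, and TAPBP and TAP2 in control. TAPBP stood above TAP2 and HLA-B in control and below both with either DsiRNA.

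The genes whose profile over the 9 libraries lay closest to the class I chains were found among 9682 genes by root mean square distance on the log2 CPM scale, centred on control. For the mean profile of HLA-B, HLA-C, HLA-E, HLA-F and B2M these were DCPS, an mRNA cap scavenger (distance 0.0507), CPVL, a carboxypeptidase (0.0543), RPL36AL, a ribosomal protein (0.0558), BOK, a BCL2 family member (0.0642), and RSRP1 (0.0655). CPVL rose to 121.3 ± 1.82 CPM with 13.6 and 153.4 ± 2.03 CPM with 13.8, against 93.8 ± 6.02 CPM in control (SD, n = 3 each). The closest gene was RPRD1A for TAP1 (0.0572), SLC30A6, a zinc transporter, for TAP2 (0.0742), INPP4A for TAPBP (0.0402) and ZC3HAV1, an antiviral zinc-finger protein, for ERAP1 (0.0575).

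Other genes of the pathway were followed by lists of known partners and regulators. The counts of each list are to be read beside the shares over all genes tested. With 13.6 these were 24.9% that rose and 25.0% that fell, and with 13.8 27.5% and 27.9%. Of 16 tested loading and trimming partners, 9 rose and 0 fell with 13.6, and 3 rose and 3 fell with 13.8, with medians of 0.26 and 0.10. CANX (calnexin), which holds new heavy chains, gave 921.8, 872.4 and 918.1 CPM with 13.6, 794.1, 760.5 and 743.7 CPM with 13.8, and 429.9, 434.5 and 400.9 CPM in control, and rose with both (1.10 ± 0.06 and 0.86 ± 0.06, adjusted p = 2.04e-08 and 8.65e-08). PDIA3, the disulfide isomerase that pairs with tapasin, rose with both as well (0.81 ± 0.06 and 0.445 ± 0.06). CALR (calreticulin), the third chaperone of the loading complex, rose with 13.6 (777.8 ± 47.0 against 529.1 ± 49.7 CPM in control, 0.56 ± 0.08), and gave 0.05 ± 0.08 with 13.8 (adjusted p = 0.59); 13.6 against 13.8 differed by 0.50 ± 0.08 (adjusted p = 8.44e-05). SEC61A1, a channel subunit, rose with 13.6 (0.38 ± 0.06), and the chaperone HSPA5 rose with 13.8 (0.92 ± 0.12). BLMH, a cytosolic peptidase, rose with 13.6 (0.30 ± 0.08) and fell with 13.8 (-1.08 ± 0.08).

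Among the 10 immunoproteasome and related genes, 3 rose and 1 fell with 13.6, and 2 rose and 0 fell with 13.8, with medians of 0.01 and 0.02. The share that rose was near that of all genes, 24.9% with 13.6 and 27.5% with 13.8. Beside PSMB9, PSMB8, the second inducible catalytic subunit, rose by 0.30 ± 0.08 with 13.6 (adjusted p = 0.00671) and 0.21 ± 0.08 with 13.8 (adjusted p = 0.0388). The call with 13.8 was lost without any 1 of the 3 control libraries or without 13.8 replicate 2 or 3, with estimates of 0.16 to 0.22 and adjusted p of 0.0528 to 0.163. PSMB10, the remaining inducible subunit, fell with 13.6 to 12.22 ± 1.84 CPM (-0.66 ± 0.15, adjusted p = 0.00323) and stood at 19.79 ± 2.71 CPM with 13.8, against 19.34 ± 4.003 CPM in control. POMP, the assembly factor, rose with 13.6 (0.40 ± 0.08) and gave -0.16 ± 0.08 with 13.8 (adjusted p = 0.13). The constitutive subunits PSMB5, PSMB6 and PSMB7 and the activator subunits PSME1, PSME2 and PSME3 did not pass the test with either DsiRNA, with estimates from -0.12 to 0.17.

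Of 21 regulators of class I transcription, 6 rose and 3 fell with 13.6 (median 0.03), and 4 rose and 7 fell with 13.8 (median -0.07). Here too the share that rose was near that of all genes (24.9% and 27.5%). NLRC5, the class I transactivator, and IRF1, another regulator of this list, are named for their role after their values were seen. NLRC5 gave 1.77, 1.337 and 1.298 CPM with 13.6, 3.407, 3.017 and 2.785 CPM with 13.8, and 1.169, 1.482 and 1.614 CPM in control. It rose with 13.8 (1.11 ± 0.19, adjusted p = 2.74e-04), the estimate with 13.6 was 0.05 ± 0.205 (adjusted p = 0.869), and 13.6 against 13.8 differed by -1.07 ± 0.19 (adjusted p = 3.02e-04). IRF1 had another order, with 4.371 ± 0.494 CPM with 13.6, 3.11 ± 0.497 CPM with 13.8 and 2.928 ± 0.424 CPM in control (SD, n = 3 each). NFYA, a subunit of the CCAAT-binding factor, rose with both DsiRNAs (0.96 ± 0.07 and 0.285 ± 0.07), and its partner NFYB fell with both (-0.58 ± 0.07 and -0.49 ± 0.07). RELB, an NF-kB subunit, rose with 13.6 (0.815 ± 0.11). EZH2, the methyltransferase of Polycomb complex PRC2, fell to 60.55 ± 2.73 CPM with 13.6 and 40.86 ± 2.03 CPM with 13.8, against 80.47 ± 3.73 CPM in control (-0.41 ± 0.07 and -0.98 ± 0.07). Its complex partner EED (-0.49 ± 0.07) and the CRE-binding factor ATF1 (-0.48 ± 0.08) fell with 13.8.

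Of 15 tested interferon receptors, relays and feedback genes, 7 rose and 5 fell with 13.6 (median 0.08), and 7 rose and 1 fell with 13.8 (median 0.305). The shares of all genes tested were 24.9% and 25.0% with 13.6, and 27.5% and 27.9% with 13.8. The receptor chain IFNAR1 rose with both (1.16 ± 0.07 and 1.18 ± 0.07), as did IRF9, the DNA-binding part of the interferon-activated complex, with 57.55, 64.05 and 60.44 CPM with 13.6, 57.45, 63.50 and 63.97 CPM with 13.8, and 20.30, 28.05 and 25.28 CPM in control. JAK2 rose with both (0.96 ± 0.11 and 0.47 ± 0.11), and SOCS3, a feedback inhibitor of cytokine signalling, fell with both (-0.68 ± 0.13 and -1.47 ± 0.14). STAT2 fell with 13.6 (-0.54 ± 0.07). The interferon genes of this list were at the limit of detection at 24 h. IFNB1, IFNL2, IFNL3 and IFNA1 had 0 reads, and IFNL1, IFNG and IFNE 1 read each, over all 9 libraries. Other interferon genes were not looked at. A count of 0 allows up to 3 reads, or 0.0569 to 0.078 CPM by library, for counting error only.

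**Figure D4:**
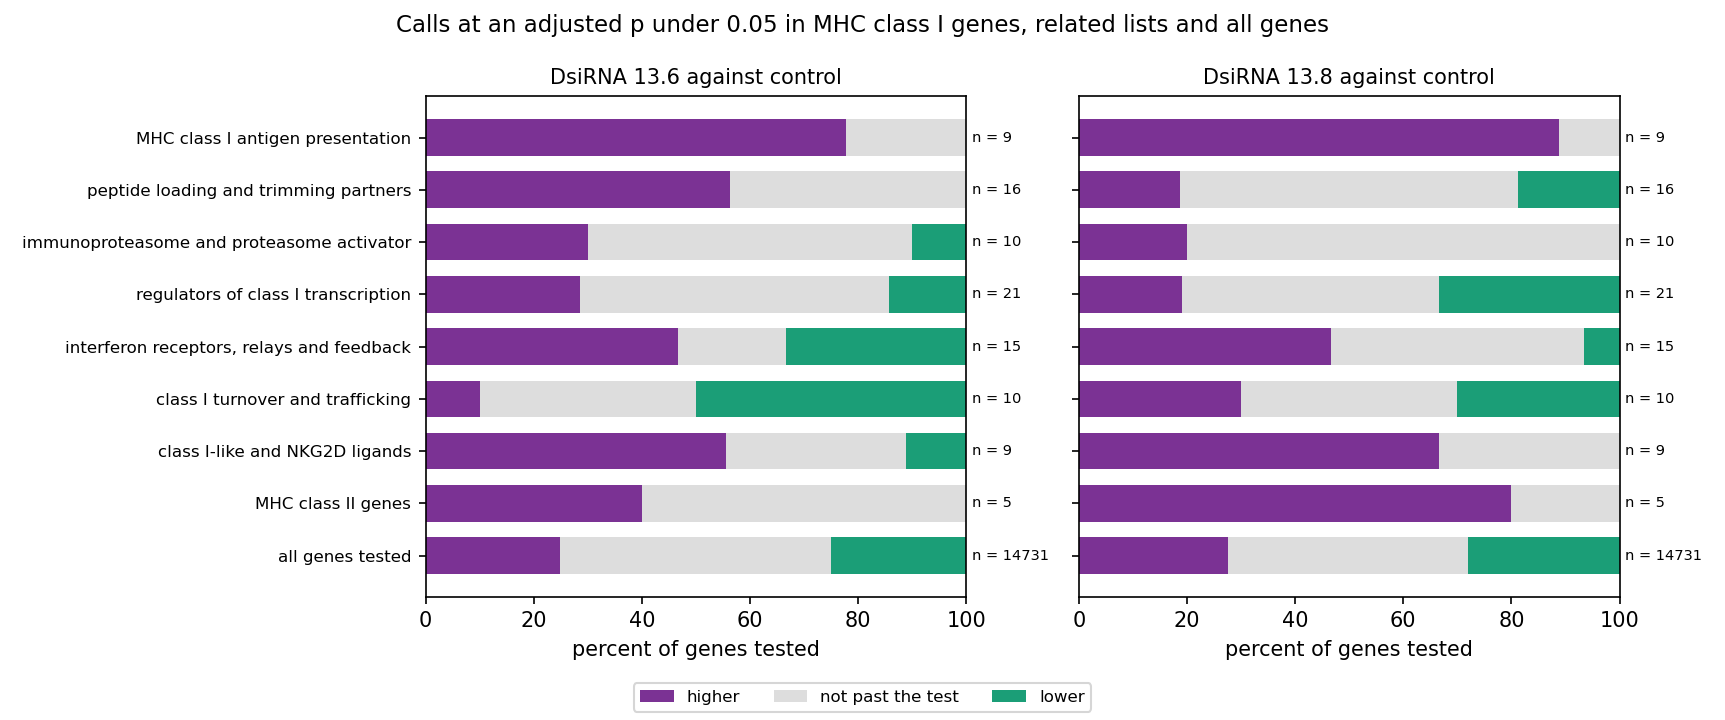
Percent of tested genes (x axes) called higher (purple), not past the test (grey) and called lower (green) at an adjusted p under 0.05, for the 9 class I genes, 7 related lists and all 14731 genes, with DsiRNA 13.6 on the left and 13.8 on the right against control. The class I genes have no lower call with either DsiRNA, while all genes tested are split nearly evenly between higher and lower.

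Genes that act on class I molecules after synthesis and genes that resemble class I molecules were counted in the same way. Over all genes tested, 24.9% rose and 25.0% fell with 13.6, and 27.5% and 27.9% with 13.8. Of 10 turnover and trafficking genes, 1 rose and 5 fell with 13.6 (median -0.08), and 3 rose and 3 fell with 13.8 (median 0.04). The counts with 13.8 were near the shares of all genes. VCP, the ATPase that pulls proteins out of the endoplasmic reticulum, rose with both (0.57 ± 0.06 and 0.33 ± 0.06). SYVN1, a ubiquitin ligase of that pathway (-0.50 ± 0.075), and RAB11A of the recycling endosome (-0.33 ± 0.07) fell with 13.6. DERL1 (-0.58 ± 0.06) and the ligase WWP2 (-0.48 ± 0.09) fell with 13.8. Of 9 tested class I-like genes and NKG2D ligands, 5 rose and 1 fell with 13.6 (median 0.37), and 6 rose and 0 fell with 13.8 (median 0.45). MR1, which presents vitamin B metabolites, rose with both (0.37 ± 0.08 and 0.48 ± 0.08). MICB (1.27 ± 0.20) and MICA (0.50 ± 0.10), ligands of NKG2D, rose with 13.6 and gave 0.10 ± 0.21 and 0.04 ± 0.10 with 13.8 (adjusted p = 0.711 and 0.742). FCGRT, the neonatal Fc receptor chain, rose with 13.8 (1.503 ± 0.17) and gave -0.32 ± 0.19 with 13.6 (adjusted p = 0.176).

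Of 14 MHC class II genes, 5 had enough reads to be tested, of which 2 rose with 13.6 (median 0.20) and 4 with 13.8 (median 1.42), with 0 falling in each. Of all genes tested, 24.9% rose with 13.6 and 27.5% with 13.8. HLA-DPA1 had 13, 25 and 32 reads with 13.6, 101, 115 and 83 reads with 13.8, and 20, 20 and 17 reads in control, and rose with 13.8 (2.125 ± 0.30, adjusted p = 3.77e-05). HLA-DMA and HLA-DMB, which load class II peptides, rose with 13.8 (1.44 ± 0.22 and 1.42 ± 0.23). HLA-DMA also rose with 13.6 (0.695 ± 0.23, adjusted p = 0.0228), a call lost without control replicate 3 (0.59, adjusted p = 0.07) or 13.6 replicate 3 (0.52, adjusted p = 0.109). CTSS, a protease of the class II pathway, rose with both (0.90 ± 0.16 and 0.68 ± 0.16).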

How the data were processed

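Total RNA of 501mel cells was sequenced in 9 libraries made with a strand-keeping kit, per the labels' protocols. The authors deposited raw read counts for each gene symbol and a second table of log2 values that equal log2 of the count divided by a library size factor, plus 1, since they gave back the counts within 0.00204 of a read over 25354 genes. STAR, HTSeq, cutadapt, FastQC, DESeq2 and hg19 are named, per the submitters' processing notes; no version, annotation or strand setting is given in the sources used here. The count table has 25398 entries, of which 16 that repeat a symbol were left out, and 28 have names turned into dates (0.2% of the counts, kept in the totals).

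The deposited counts were tested in R 4.3.3 with edgeR 4.0.16: filterByExpr (minimum count 10), TMM, a robust quasi-likelihood fit of all 9 libraries with 1 mean per group (6 residual degrees of freedom), two-sided, adjusted by Benjamini-Hochberg over the 14731 genes kept, which hold 99.97% of the reads. The comparisons were each DsiRNA against control and 13.6 against 13.8. SEs and 95% confidence intervals come from the same model. No value was dropped or imputed. The code was tested on simulated data. Alternatives used DESeq2 1.42.0, limma-voom (limma 3.58.1), other scaling, filters, thresholds and samples.

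The 9 genes, the gene lists and the tests were chosen with earlier results of these data known, so no list was tested as a set. Besides the 9 genes and TBX3, up to 4 called genes with the smallest adjusted p per list and comparison are named, all immunoproteasome genes, and the closest profiles among genes of at least 5 CPM; PROCR, HFE, RAET1G, TMEM127 and HM13 met the rule and are counted without their values. Another gene that met it is not reported here. HLA-F-AS1 and CAST are named for their position and CD68 as a marker. Replicates of a group correlated at 0.9905 to 0.9949 and libraries of different groups at 0.964 to 0.978 over log2 CPM, and replicates differed by more than counting error (chi-square per degree of freedom 5.01 to 43.2). Promoter sequences and start sites are from RefSeq (GRCh38.p14), transcript lengths and overlaps from GENCODE v29. As the counts rest on hg19, these were used only for sequence, length and neighbourhood.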

Additional observations from a re-analysis of the deposited data

Results flagged for a closer look

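In 4 of the 9 genes the change against control differed between the 2 DsiRNAs by a test of the difference itself, edgeR's quasi-likelihood test of 13.6 against 13.8 adjusted over all genes. Of all genes tested, 30.9% were higher and 30.2% lower in this comparison, against 1 and 3 of the 9, so such differences were no more frequent among the class I genes than among all genes. The change with 13.6 minus the change with 13.8 was -0.344 ± 0.066 on the log2 scale for HLA-B, which rose with both reagents, and -0.28 ± 0.067 for HLA-C, which also rose with both. For HLA-F it was -0.599 ± 0.10, where the rise passed the test with 13.8 and not with 13.6. For TAP2 it was 0.499 ± 0.062 and TAP2 rose with both reagents.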

How the results depend on the processing

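The 27 changes of the 9 genes were recomputed in 432 cases, of which 409 kept direction and call, 11 kept direction and lost the call, and 12 changed sign, none of these called. The sign changes were HLA-F with 13.6 against control without control replicate 3 (0.023; range over left-out libraries -0.104 to 0.023), TAPBP with 13.8 against control without control replicate 3 (-0.039) or 13.8 replicate 1 (-0.032; range -0.039 to 0.103), and ERAP1 for 13.6 against 13.8 without 13.6 replicate 3 (0.020; range -0.138 to 0.020). For 13.6 against 13.8, B2M turned with library totals (-0.027), with a mean of at least 50 reads (-0.011), and without 13.6 replicate 2 (-0.003), 13.6 replicate 3 (-0.005) or 13.8 replicate 1 (-0.041; range -0.041 to 0.067), and TAP1 with library totals (-0.031), at least 50 reads (-0.014) and without 13.8 replicate 2 (-0.004; range -0.004 to 0.033). A call at an adjusted p under 0.05 that also asked for 1.5-fold left 1417 genes higher and 1585 lower with 13.6 against control (4 of the class I genes higher), 2130 higher and 1654 lower with 13.8 against control, and 1918 higher and 2504 lower for 13.6 against 13.8 (0 class I genes higher and 1 lower); fewer genes pass by construction. Whether replicate numbers pair the libraries is not given by the labels and was not settled by the data. Deviations of the 9 same-numbered pairs correlated at -0.179 to 0.187, 3 of them above 0.1. Of the 9 libraries, 5 correlated best with their own number. Without a block, 3668 genes were higher and 3689 lower with 13.6, 4053 and 4116 with 13.8, and 4547 and 4448 for 13.6 against 13.8. With the replicate number as a block, 4007 genes were higher and 4003 lower with 13.6, 4392 and 4411 with 13.8, and 4809 and 4772 for 13.6 against 13.8, and the counts of class I genes were unchanged at 7, 8, 1 and 3. Ratios of summed heavy chains ranged over left-out libraries from 1.21 to 1.28 with 13.6, 1.41 to 1.5 with 13.8 and 0.822 to 0.876 for 13.6 against 13.8. Depth limits PSMB9, NLRC5, IRF1 and the class II genes, which had few reads.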
